A study of Homo sapiens with 9 samples.

Results

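Broad RBPJ domains were the intervals at least 3000 bp wide in the deposited list of RBPJ binding in HEK293T cells with wild-type FBXO42. They were chosen by width alone, on chromosomes 1 to 22 and X, and they numbered 1003 of the 42655 intervals in that list, or 2.35%. They spanned 4.73 Mb, which was 13.4% of all bases the list covers. Their median width was 3823 bp, with a range of 3001 to 44097 bp, against a median of 534 bp over the whole list. Of the domains, 437 reached 4000 bp, 235 reached 5000 bp, 48 reached 10000 bp and 12 reached 15000 bp. Just inside the limit lay intervals of 3001, 3002, 3002, 3003 and 3004 bp, and just outside it intervals of 2998, 2996, 2995, 2992 and 2991 bp.

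The series holds 9 libraries, of which 7 are CUT&Tag from HEK293T, a human embryonic kidney line, and 2 are ATAC-seq from cells labelled Jurkat, a leukaemic T cell line. CUT&Tag directs a transposase to the DNA beside a protein bound by an antibody, and ATAC-seq lets free transposase cut open chromatin. The groups with a list of intervals were RBPJ antibody in FBXO42 wild-type HEK293T, RBPJ antibody in FBXO42 knockout HEK293T, RBPJ antibody in a library titled RBPJ, RBPJ antibody in a library titled RBPJK175R, ATAC-seq in FBXO42 wild-type cells and ATAC-seq in FBXO42 knockout cells. The last 2 HEK293T libraries named here, titled RBPJ and RBPJK175R, also carry the FBXO42 knockout genotype in the labels; the labels do not say how these 2 forms were brought into the cells. The 3 IgG control libraries were not analysed here. Each group was 1 library, so every difference below is between 2 libraries and no test between conditions was possible.

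In the Notch pathway RBPJ is the factor that binds DNA. Without a Notch signal it recruits corepressors such as SPEN to its target genes, and when Notch is cleaved its intracellular part joins RBPJ with Mastermind proteins to switch those genes on. FBXO42 is an F-box protein, the substrate-binding subunit of a ubiquitin ligase. The study asks whether FBXO42 alters where RBPJ sits on DNA. Wide intervals differ from narrow ones in what can happen to them: a wide interval can be kept, shrink around a core or split into pieces in another library.

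The letters TGGGAA form the core of the known RBPJ motif. The promoters of 5 genes covered by domains are shown as examples and do not represent all Notch target and corepressor genes at domains. Each runs from 250 bases before to 50 after the RefSeq start on GRCh38.p14, 5′ to 3′ on the strand of the gene, with capitals for TGGGAA or its reverse complement TTCCCA. HES1, HES4 and HEY2 encode repressors switched on by Notch, SPEN encodes an RBPJ corepressor, and NRARP encodes a feedback inhibitor of Notch.
HES1 chr3:194135898-194136197, plus strand: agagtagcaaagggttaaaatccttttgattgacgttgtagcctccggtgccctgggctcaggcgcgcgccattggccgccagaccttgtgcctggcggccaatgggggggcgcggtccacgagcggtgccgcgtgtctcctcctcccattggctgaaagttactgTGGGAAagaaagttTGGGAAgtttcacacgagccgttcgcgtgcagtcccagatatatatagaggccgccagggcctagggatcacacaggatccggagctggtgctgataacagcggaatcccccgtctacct
HES4 chr1:1000048-1000347, minus strand: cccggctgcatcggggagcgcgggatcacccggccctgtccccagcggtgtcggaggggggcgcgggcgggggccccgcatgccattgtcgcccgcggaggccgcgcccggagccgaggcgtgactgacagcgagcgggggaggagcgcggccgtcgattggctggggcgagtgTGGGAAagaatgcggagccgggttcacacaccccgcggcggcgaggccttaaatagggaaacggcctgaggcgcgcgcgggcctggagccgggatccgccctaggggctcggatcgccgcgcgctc
HEY2 chr6:125749382-125749681, plus strand: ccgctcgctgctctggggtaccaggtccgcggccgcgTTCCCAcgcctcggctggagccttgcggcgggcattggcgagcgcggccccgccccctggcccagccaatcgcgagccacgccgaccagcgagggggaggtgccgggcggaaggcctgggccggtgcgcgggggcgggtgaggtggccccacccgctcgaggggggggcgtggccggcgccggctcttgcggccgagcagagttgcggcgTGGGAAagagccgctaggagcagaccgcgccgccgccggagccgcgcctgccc
SPEN chr1:15847457-15847756, plus strand: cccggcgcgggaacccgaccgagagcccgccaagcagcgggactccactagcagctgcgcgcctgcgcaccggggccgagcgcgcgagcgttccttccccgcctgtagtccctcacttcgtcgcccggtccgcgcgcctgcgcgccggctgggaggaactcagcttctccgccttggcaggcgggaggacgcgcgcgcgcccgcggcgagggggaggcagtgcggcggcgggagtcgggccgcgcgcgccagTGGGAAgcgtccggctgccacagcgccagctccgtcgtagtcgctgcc
NRARP chr9:137302222-137302521, minus strand: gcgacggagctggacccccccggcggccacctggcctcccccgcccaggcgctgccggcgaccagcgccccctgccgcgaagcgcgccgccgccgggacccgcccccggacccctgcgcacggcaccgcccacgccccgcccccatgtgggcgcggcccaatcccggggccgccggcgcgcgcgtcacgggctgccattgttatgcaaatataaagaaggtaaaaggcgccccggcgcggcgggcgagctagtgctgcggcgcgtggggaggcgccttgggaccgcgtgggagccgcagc

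In HES1 a pair of matches began 84 and 70 bases before the start, and in HES4 a match began 76 bases before it. HEY2 held a match on the opposite strand 213 bases before the start and another 3 bases before it. In SPEN the match began 2 bases after the start, and the NRARP window held neither TGGGAA nor TTCCCA. The same windows of ID2, ID3, HES7, IGF1R, TLE1, TLE3, TLE4, NCOR1 and RITA1, not shown, also held neither. Of the 903 RefSeq promoters whose start lay in a domain, 241, or 26.7% (95% exact binomial interval 23.8 to 29.7), held TGGGAA on either strand. The share was 22.6% of the 8158 promoters whose start lay in a narrower wild-type interval and 22.7% of all 22012 promoters. The longer GTGGGAA, which contains TGGGAA, was in 80 of the 903, or 8.86% (7.09 to 10.9), against 5.90% and 6.0%. The median number of CG dinucleotides per promoter was 27 in domains, 28 in narrower intervals and 21 overall. Promoters of 1 gene often overlap, so these windows are not independent, and a match describes the letters and not a bound site.

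The domains lay mostly over gene starts. Of 1003 domains, 730 (72.8%) came within 1 kb of an annotated end of a protein-coding gene, against 27% of all wild-type intervals. A gene's start was covered by 570 of the 898 domains outside chromosome 8, or 63.5%, against 16.8% of all wild-type intervals; starts on chromosome 8 were not used here. The starts of at least 2 genes lay in 97 of these domains. A further 152 domains lay inside a gene, more than 1 kb from its ends, 135 overlapped no protein-coding gene, and 85 held a whole one. A domain covered a start or an end of 985 of 19974 protein-coding genes, or 4.93%. At their summits, the positions of highest pileup, the domains held 13 to 4945 reads with a median of 117, against 15 over the whole list. Width itself was only loosely tied to summit height across domains (Spearman's rho 0.261, n = 1003 intervals of 1 library).

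HOX genes, which set position along the body axis, were the gene list with the largest covered share: 28 of 39 had a start or end in a domain, or 71.8%. Immediate early genes, whose transcription answers growth signals within minutes, followed with 14 of 23 (60.9%), among them EGR1, FOS, FOSB, JUN, JUNB, JUND, IER2 and ATF3. Of ubiquitously expressed housekeeping genes 6 of 16 (37.5%) were covered, and of kidney and developmental transcription factors 11 of 36 (30.6%), including SIX2, SALL1, FOXC1 and PAX6. Of 36 known Notch target genes 10 were covered (27.8%): HES1, HES4, HES7, HEY1, HEY2, NRARP, MYC, ID2, ID3 and IGF1R. HES5, HEYL, DTX1, CCND1 and JAG1 were among the 26 Notch targets with no domain. Of 25 RBPJ corepressor and cofactor genes 7 were covered (28%): SPEN, NCOR1, TLE1, TLE3, TLE4, SHARPIN and RITA1. These shares stand beside 4.93% of all protein-coding genes.

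Smaller shares were covered in the other lists. They were 7 of 27 small nuclear RNA genes, 4 of 30 cell cycle genes, 8 of 64 replication-dependent histone genes, 4 of 32 chromatin remodellers and modifiers, 3 of 25 signalling feedback genes and 3 of 39 Notch pathway genes. Of all 154 annotated small nuclear RNA genes, 13 (8.44%) overlapped a domain. The Notch pathway share was 7.69%, against 4.93% of all protein-coding genes. The 3 Notch pathway genes were RBPJ itself, MAML3, which encodes a Mastermind coactivator, and PSENEN, which encodes a subunit of the protease that cleaves Notch. Of 10 kidney and epithelial markers only CDH2 was covered, and none of 14 T cell or 10 B cell and myeloid markers was. Small nuclear RNA and histone genes have near-identical copies, so their reads may have been shared between copies.

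Some domains stood side by side. With gaps of at most 20 kb, 303 domains had another domain as a neighbour, and 17 runs held at least 4 domains each, 83 in all. The longest runs had 7 domains each: along the HOXA, HOXB and HOXC clusters, and at SPEN. In the HOXA run 79.9 kb of 97.3 kb lay in domains, and in the HOXB run 69.0 kb of 84.5 kb. A run of 5 domains around TSC22D3, a glucocorticoid-induced gene on chromosome X, covered 52.3 kb, and 4 domains lay at BCOR, which encodes a corepressor. Chromosome 8 held 105 domains, 4.73% of its intervals, against 2.35% over all chromosomes. Chromosomes X, 19 and 17 had similar shares, with 99 domains (3.52%), 107 (3.44%) and 88 (3.42%).

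Nearly every domain met an interval in the FBXO42 knockout list, and 438 of 1003 were kept as a single interval over at least 50% of the domain. This count rests on the definition: it was 549 with pieces under 500 bp apart joined, and 539 with kept set at 25% of the domain. At least 1 bp of 982 domains (97.9%, 95% exact binomial interval 96.8 to 98.7) lay in a knockout interval, against 32.1% of all wild-type intervals. For the titled RBPJ list it was 927 domains (92.4%), against 24.8% of all intervals, and for the titled RBPJK175R list 858 (85.5%), against 19.6%. The summit base of the domain lay in an interval for 94.2%, 85.3% and 72.3% of domains in these 3 lists, against 26.6%, 21.1% and 15.5% of all wild-type intervals. All 3 lists had a call in 830 domains and none had one in 8.

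A domain was called kept where exactly 1 interval of the other list met it and covered at least 50% of it, narrowed where exactly 1 interval covered less, and broken up where at least 2 intervals met it. In the knockout list 438 domains were kept, 140 narrowed, 404 broken up and 21 without a call. In the titled RBPJ list the numbers were 296, 324, 307 and 76, and in the titled RBPJK175R list 163, 375, 320 and 145. Of all wild-type intervals, mostly far narrower, 21.6%, 16% and 10.3% were kept in the 3 lists. The median share of a domain that was covered was 70.5% in the knockout list, 47.6% in the titled RBPJ list and 34.7% in the titled RBPJK175R list. It fell in that order in 523 of 1003 domains. The number kept thus fell from the knockout to the titled RBPJ to the titled RBPJK175R list, and the number broken up was between 307 and 404. The number narrowed rose in that order at this limit, but with kept set at 75% it was 290, 506 and 494.

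The libraries differed in depth in the same order as the share covered. The genome-wide background, the lowest number of reads expected at a position, which grows with the number of reads and with the length each is extended to, was 1.77 reads in the wild-type list. It was 1.63 in the knockout list (92.1% of the wild type), 1.26 in the titled RBPJ list (71.4%) and 0.675 in the titled RBPJK175R list (38.1%). Its part in the numbers kept was not tested. Intervals of at least 3000 bp numbered 695 in the knockout list, 252 in the titled RBPJ list, 104 in the titled RBPJK175R list, and 0 in either ATAC list. Summit reads relative to this background were lower than in the wild type at 945 of the 982 domains called in the knockout list, with a median ratio of 0.532. The median ratio was 0.700 in the titled RBPJ list and 0.639 in the titled RBPJK175R list. The domains were chosen in the wild-type library. Among the 695 intervals of at least 3000 bp chosen in the knockout list, the median ratio of wild type to knockout was 1.62. Among those chosen in the titled RBPJ list the median ratio of wild type to that list was 1.17, and for the titled RBPJK175R list it was 1.23.

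Wide domains were the most often broken up. Of the 48 domains of at least 10000 bp, 42 were broken up in the knockout list, 42 in the titled RBPJ list and 45 in the titled RBPJK175R list. Of the 566 domains of 3000 to 3999 bp, 168, 108 and 106 were. A wider domain has more room to meet at least 2 intervals, and the part of width itself was not tested. In the ATAC wild-type list the share with at least 2 intervals rose likewise, from 25.4% in the narrower class to 64.6% in the wider. The median share covered in the knockout list was 78.4% for domains of at least 10000 bp and 67.6% for those of 3000 to 3999 bp, so the widest domains were split but not covered less. The domains without a call had few reads in the wild type: their median was 31 for the knockout list, 47.5 for the titled RBPJ list and 58 for the titled RBPJK175R list.

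**Figure D1:**
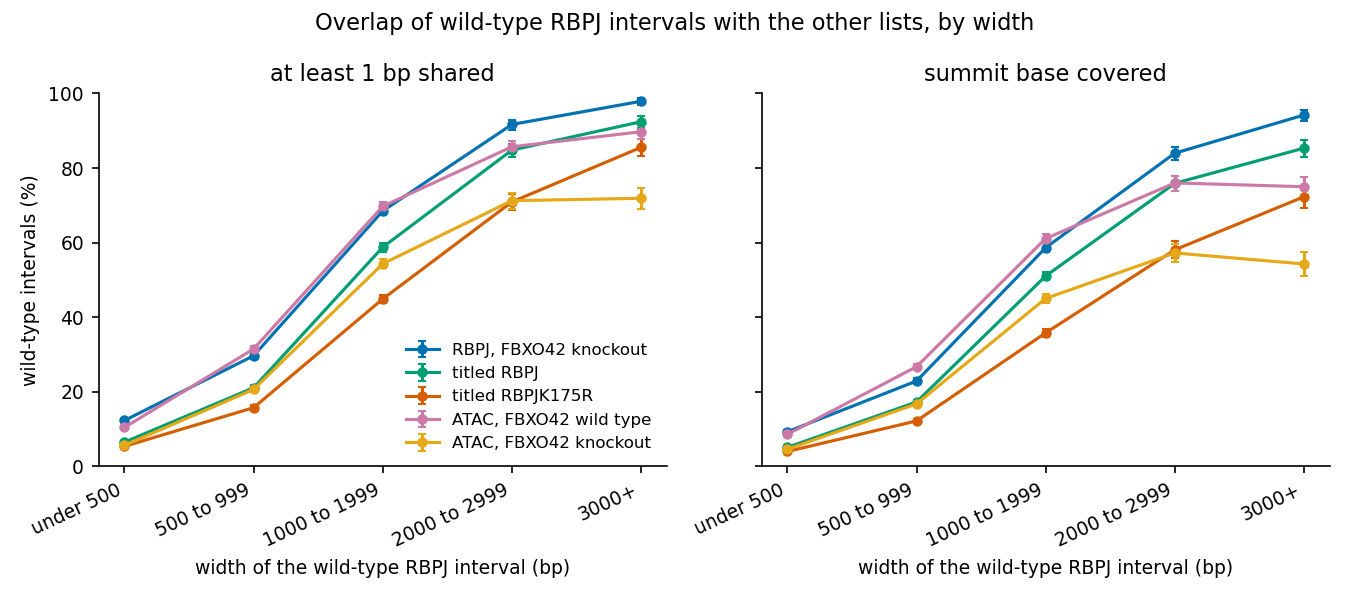
Share of wild-type RBPJ intervals (y axis, %) that shared at least 1 bp (left) or had their summit base covered (right) in each other list, by width of the interval (x axis, bp); bars are 95% exact binomial intervals of counting. The RBPJ lists rise through every class to 97.9%, 92.4% and 85.5%, while summit coverage in the ATAC lists is no higher at 3000 bp or more than from 2000 bp to under 3000 bp.

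At a given summit height, the summits of domains lay in the other RBPJ lists as often as those of narrower intervals or more often, but in the ATAC lists less often. Among intervals with 100 to 199 summit reads, the summit lay in the titled RBPJ list for 94.5% of 272 domains and 94.2% of 960 narrower intervals. In the titled RBPJK175R list these shares were 83.5% and 82.4%. In the ATAC wild-type list they were 82.0% (95% exact binomial interval 76.9 to 86.4) of domains and 95.6% (94.1 to 96.8) of narrower intervals, and in the ATAC knockout list 61.4% (55.3 to 67.2) and 84.6% (82.1 to 86.8). With 50 to 99 reads the ATAC wild-type shares were 69.7% of 277 domains and 90.3% of 2533 narrower intervals, and with at least 200 reads 89.4% of 301 and 96.1% of 411. With 20 to 49 reads they were 45.3% of 148 domains and 51.2% of 9645 narrower intervals. The share of domains was the lower in each of these 4 classes, in both ATAC lists. The binomial intervals cover counting error within 1 library only.

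Where the other RBPJ lists covered a domain at a gene start, they covered positions near the start more often than the flanks. The 473 domains over the start of exactly 1 gene reached a median of 1903 bp upstream and 2026 bp downstream of it. The start itself was covered in 415 of them (87.7%) in the knockout list, 359 (75.9%) in the titled RBPJ list and 254 (53.7%) in the titled RBPJK175R list. At 2000 bp upstream, where wild-type intervals covered 51.0%, these lists covered 37.6%, 19.7% and 15%. At 2000 bp downstream, where wild-type intervals covered 59.2%, the shares were 37.6%, 19.5% and 16.3%, so neither side stood out at that distance. Coverage leaned upstream at 1000 bp from the start. The positions 1000 bp upstream and 1000 bp downstream both lay in the domain for 333 domains. Of these 333, the titled RBPJK175R list covered the upstream position alone in 106 and the downstream position alone in 43. In the titled RBPJ list these numbers were 109 and 60, and in the knockout list 86 and 60. The ATAC wild-type list covered the upstream position alone in 63 and the downstream position alone in 31.

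The 11 domains at Notch targets had a median width of 7972 bp. In the knockout list 8 were broken up and 3 kept, against 404 and 438 of all 1003 domains; of the 187 domains from 5000 to under 10000 bp, 60.4% were broken up and 33.7% kept. The median share covered was 73.5%, against 70.5% of all domains. In the titled RBPJ list the median was 55.7% and in the titled RBPJK175R list 41.0%, against 47.6% and 34.7%. Their relative summit signal had medians of 0.370, 0.563 and 0.453 of the wild type in these lists, against 0.532, 0.700 and 0.639 over all domains. These 11 domains held a median of 239 summit reads in the wild type, and all domains 117.

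The domain at HES1 (chr3:194132622-194138404), which covers the pair of matches shown above, had 416 summit reads in the wild-type list, 165 in the knockout, 150 in the titled RBPJ and 45 in the titled RBPJK175R list. It was kept in the knockout list, by an interval over 89.2% of it, and in the titled RBPJ list, over 90.8%, and was in 3 pieces over 68.6% in the titled RBPJK175R list. The HES4 domain (chr1:994753-1002724) had 957, 296, 309 and 111 reads and shrank more: 55%, 24.3% and 13.4% of its 7972 bp were covered. In both domains the wild-type library had the most reads and the titled RBPJK175R library the fewest. Reads here and at the named domains below are not adjusted for depth. The background was 92.1%, 71.4% and 38.1% of the wild type's in the knockout, titled RBPJ and titled RBPJK175R lists. The order of reads can therefore differ from that of signal relative to background.

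HEY1 lay under 1 of the 10 widest domains (chr8:79756369-79772594, 16226 bp), with 789 reads in the wild-type list, 269 in the knockout, 214 in the titled RBPJ and 49 in the titled RBPJK175R list. It was broken up in all 3, into 2, 2 and 4 pieces over 62.3%, 55.7% and 41.5%. The HEY2 domain (chr6:125746653-125750468), with 239, 66, 96 and 36 reads, was in 2 pieces in each list, and its covered share was not ordered as elsewhere: 81.3%, 76.7% and 87.9%. The NRARP domain (chr9:137293729-137307835, 14107 bp) had only 99 reads at its summit in the wild type, and 43, 62 and 32 in the other lists. It was in 4, 3 and 6 pieces over 73.5%, 44.7% and 41.0%. The reads at HEY1, HEY2 and NRARP are likewise not adjusted for depth.

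MYC, a growth-promoting transcription factor gene, lay in a domain of 12591 bp (chr8:127733324-127745914) with 551 reads in the wild-type list, 140 in the knockout, 130 in the titled RBPJ and 46 in the titled RBPJK175R list. It was kept in the knockout list over 79.4% and in 2 pieces in the titled lists, over 45.6% and 38.5%. ID2 and ID3, which encode inhibitors of bHLH transcription factors, had domains of 10217 and 10394 bp that were broken up in all 3 lists. The IGF1R domain, with 51 reads the lowest at a Notch target, had no call in the titled RBPJK175R list. At RBPJ itself a domain of 3847 bp over an annotated start (chr4:26318634-26322480) was kept in all 3 lists, over 57.0%, 65.7% and 55.6%, with 950 reads in the wild type and 216, 198 and 85 in the others.

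The corepressor gene SPEN lay in a run of 7 domains and had another at its end. The domain over its start (chr1:15842732-15853867, 11136 bp) had 1822 summit reads in the wild-type list, 625 in the knockout, 646 in the titled RBPJ and 315 in the titled RBPJK175R list. It was in 3, 2 and 3 pieces, over 79.6%, 86.1% and 73.1%. Across the SPEN run 71.3%, 72.2% and 57.2% of the domain bases were covered in the 3 lists. The neighbouring domain upstream (chr1:15829147-15838981) was among the 5 widest kept in both titled lists, over 85.5% and 80.3%. TLE1, TLE3 and TLE4 encode Groucho-family corepressors. Of their domains the TLE4 one was the highest, with 1011 reads in the wild type and 485, 508 and 200 in the other lists, over 91.8%, 49.4% and 33.3% of 5407 bp.

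Of the 22 HOX domains 14, 15 and 14 were broken up in the knockout, titled RBPJ and titled RBPJK175R lists, against 404, 307 and 320 of all 1003 domains and 60.4%, 52.9% and 50.8% of the 187 domains from 5000 to under 10000 bp. They had a median width of 6988 bp. Their median covered share was 82.6% in the knockout list, against 70.5% of all domains, but 33.3% in the titled RBPJ list, against 47.6%, and 30.0% in the titled RBPJK175R list, against 34.7%. Of the 22, the numbers kept were 8, 1 and 2, against 438, 296 and 163 of all domains. Their relative summit signal followed: medians of 0.699, 0.460 and 0.490 of the wild type, against 0.532, 0.700 and 0.639 over all domains. The domains of a cluster are neighbours and not independent of each other, and the difference from other domains was not tested.

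The widest HOX domain, 38068 bp over HOXA7, HOXA9, HOXA10 and HOXA11 (chr7:27154649-27192716), had 123 summit reads in the wild-type list, 90 in the knockout, 36 in the titled RBPJ and 30 in the titled RBPJK175R list. It was in 8 pieces over 74.1%, 8 pieces over 24.9% and 6 pieces over 13.1%. The domain at HOXB5 and HOXB6 (chr17:48593201-48602125) lay wholly inside a knockout interval of 14042 bp, which also reached into the next domain, over HOXB6, HOXB7 and HOXB8. In the titled lists it was in 4 and 3 pieces over 60.2% and 23.3%. The HOXD9 domain (chr2:176120240-176126100), with 92 reads in the wild type and 60 in the knockout, was kept in the knockout list over 88.8%, had no call in the titled RBPJ list and was in 2 pieces of up to 593 bp in the titled RBPJK175R list. In each of these 3 domains the knockout list covered the largest share of the 3 lists.

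**Figure D2:**
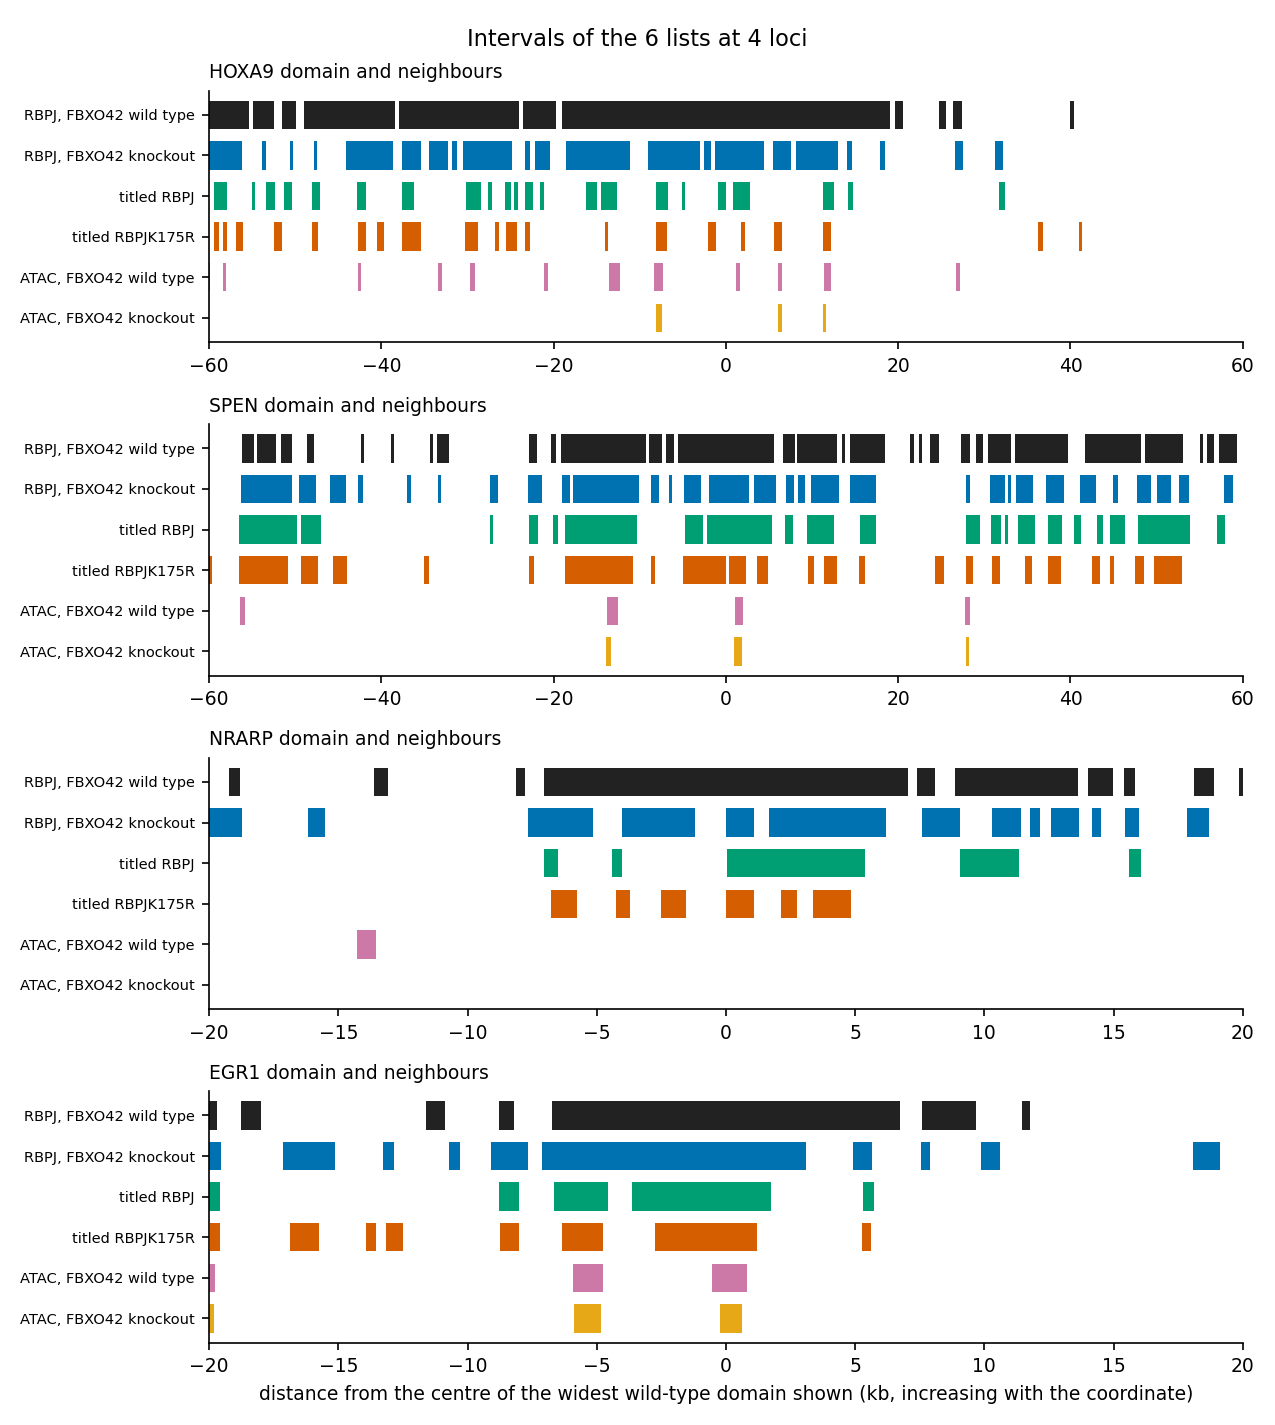
Intervals of the 6 lists (rows) at 4 loci, as distance from the centre of the widest wild-type domain at the named gene (x axis, kb). At HOXA9 the knockout list fills most of the domain and the titled lists only scattered pieces; at SPEN all 4 RBPJ lists hold wide intervals, and the NRARP domain holds no ATAC interval.

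Of the domains at immediate early genes, 7 of 14 were broken up in the knockout list, 8 in the titled RBPJ list and 9 in the titled RBPJK175R list, against 404, 307 and 320 of all 1003. They had a median width of 6984 bp and a median of 262 summit reads. The medians of relative summit signal were 0.448 in the knockout, 0.793 in the titled RBPJ and 0.545 in the titled RBPJK175R list, in the same order as the 0.532, 0.700 and 0.639 over all domains. EGR1 (chr5:138463479-138476930, 13452 bp) had 1021 reads in the wild-type list, 412 in the knockout, 400 in the titled RBPJ and 212 in the titled RBPJK175R list, over 78.5%, 58.7% and 43.9% of the domain. FOSB (chr19:45466598-45480199, 13602 bp) had 523, 87, 313 and 103 reads: the knockout was lowest although it held 1 interval over 88.7%, and the titled lists held 3 pieces each. At IER2 the reads were 338, 60, 160 and 83, in the same order as at FOSB. ATF3 had 45 reads in the titled RBPJ list, more than its 38 in the wild type, 20 in the knockout and 20 in the titled RBPJK175R list. Such reads are not adjusted for depth, so their order can differ from that of signal relative to background. The background was 92.1%, 71.4% and 38.1% of the wild type's in the knockout, titled RBPJ and titled RBPJK175R lists.

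In the smaller groups the counts stand beside 43.7%, 29.5% and 16.3% of all domains kept in the knockout, titled RBPJ and titled RBPJK175R lists. At small nuclear RNA genes 6 domains held a median of 551.5 summit reads in the wild type, and 5 of the 6 were kept in the knockout list, 4 in the titled RBPJ list and 1 in the titled RBPJK175R list. All 4 domains at cell cycle genes, CDKN2A, CDKN2C, E2F3 and MCM7, were kept in the knockout list, at a median share of 84.8%, against 70.5% of all domains. At housekeeping genes 0 of 6 domains were kept in the knockout list. ACTG1, which encodes a cytoplasmic actin, had no call in either titled list, and GAPDH had 217, 95, 106 and 41 reads in the 4 RBPJ lists. EZH2, the catalytic subunit of a repressive histone methyltransferase, had 117, 63 and 51 reads and no call in the titled RBPJK175R list.

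Of the 10 widest domains all were broken up in the knockout list. The widest of all (chrX:73812389-73856485) overlapped no protein-coding gene, lay over lncRNA genes and was in 8, 5 and 9 pieces over 81.0%, 81.7% and 77.7%. The next without HOX genes were those at RPL3, a ribosomal protein gene (19107 bp), at ZNF503 (18747 bp), and at TRIB1 (17523 bp), which encodes a pseudokinase. At EXT1, which encodes an enzyme of heparan sulfate synthesis, and at LRATD2 the knockout list covered less than the titled RBPJ list: 35.8% against 83.9% of a 16720 bp domain, and 37.0% against 51.6% of a 17465 bp domain. Over all domains the titled RBPJ list covered more than the knockout list in 233 and less in 759.

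The domain with the highest fold over background (chr7:44033540-44041875) had 4945 summit reads in the wild-type list and 945, 726 and 205 in the others. It overlapped no protein-coding gene and lay over RASA4CP, a pseudogene of RASA4. It is adjacent to a domain of 4194 bp that was the widest with no call in any of the other 3 RBPJ lists. Another of the 10 highest lay in RASA4 itself (chr7:102589440-102593088), with 837, 131, 151 and 30 reads. Reads could be split between near-identical copies, so the values at both places are uncertain. Other high domains were those at POLA1, which encodes the catalytic subunit of DNA polymerase alpha, with 1036, 220, 171 and 55 reads, and at HCFC1, a chromatin-associated cell cycle regulator, with 1472, 536, 665 and 192. Of the 10 highest by fold, 5 lay on chromosome X, which held 99 of all 1003 domains. Its median local background, by which the fold is taken, was 1.77 reads, the lowest of any chromosome.

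A set of 98 domains was kept in all 3 lists, and the widest of these, named after their values were seen, included TLCD1 and NEK8 (6222 bp), EOLA1 (5914 bp), NR4A3 (5598 bp), GSK3A (5441 bp), STAG2 (5396 bp) and PSENEN (5297 bp). GSK3A, a kinase gene, held 1739 reads in the wild type and 787, 1268 and 454 in the others, over 97.9%, 78.3% and 54.5% of the domain. At NR4A3, which encodes an orphan nuclear receptor, the other 3 lists held 87, 94 and 38. STAG2, a cohesin subunit gene, held 228, 101, 136 and 78. In these the titled RBPJ library had more reads than the knockout library, but the widest domain kept in all 3 lists (chr5:93596294-93604617, 8324 bp), which overlapped no protein-coding gene, had 229 reads in the wild type, 189 in the knockout, 65 in the titled RBPJ and 49 in the titled RBPJK175R list. The knockout also had slightly more reads at chr8:37357501-37362745, 186 against 181. These reads are not adjusted for depth: the genome-wide background was 1.63 reads in the knockout and 1.26 in the titled RBPJ list.

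The 8 domains without a call in any of the other 3 RBPJ lists held 16 to 54 summit reads in the wild type, below the median of 117. Of these, 2 lay over starts of FREM1 and CORO1A, 3 lay inside NDRG1, DGCR8 and CUL4B away from their ends, and 3 overlapped no protein-coding gene. Of the 8, 7 also had no ATAC interval. Among the widest without a call in the knockout list was HSPA8, a heat shock protein gene (46 reads in the wild type, 24 in the titled RBPJ and 12 in the titled RBPJK175R list). SLC6A8, a creatine transporter gene, had the widest domain without a call in the titled RBPJK175R list, 14792 bp with 71 reads in the wild type.

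ATAC intervals, from libraries labelled Jurkat and not HEK293T, covered a small part of most domains. The widest ATAC interval was 2447 bp in the wild-type list and 2098 bp in the knockout list, so no single one could cover a whole domain. In the ATAC wild-type list 900 domains (89.7%) held an interval, against 31.6% of all wild-type RBPJ intervals, and in the ATAC knockout list 721 (71.9%), against 22.5%. The summit base was covered in 75% and 54.2% of domains, against 27.1% and 18.2% of all intervals. The median share covered was 22.9% and 11.6%, and the widest ATAC interval in a domain had a median of 850 bp and 617 bp. In 304 domains at least 2 separate ATAC intervals lay in 1 RBPJ domain in the wild-type list, and in 102 in the knockout list. Both lists had an interval in 711 domains, the wild type alone in 189, the knockout alone in 10, and neither in 93.

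The ATAC libraries differed in depth, with a genome-wide background of 0.417 reads in the wild type and 0.184 in the knockout. The 189 domains open in the wild-type list alone had a median of 22 ATAC reads there, and the 711 open in both had 34. The part of depth in the 189 was not tested. Of the 93 domains with no ATAC interval 42 lay within 1 kb of a gene end, or 45.2%, against 76.9% of the 711 open in both. The 5 widest of the 93 were those at NRARP, IRS4, RPL36A with GLA, EXT1 (the second domain there, 8340 bp) and RPS4X.

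At HOX genes 21 of the 22 domains held an ATAC interval in the wild-type list and 9 in the knockout list, against 900 and 721 of 1003. In the wild-type list these HOX domains had a median of 32 ATAC reads, and all domains 31. At Notch targets the numbers were 9 and 5 of 11, with a median share of 8.68% in the wild-type list; HES1 had 29 ATAC reads in the wild-type list and no interval in the knockout list. EGR1 had 73 and 41 reads in 2 intervals in each list. With 1 library each, none of these differences has a replicate check.

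Few T cell markers had an interval in the ATAC libraries, which are labelled Jurkat. An interval within 1 kb of a gene end was present for 1 of 14 T cell markers, ZAP70, in the wild-type list and for 0 of 14 in the knockout list, where CD3D, CD3E, CD2 and LCK had none, against 56.5% and 42.9% of all protein-coding genes. Of 10 kidney and epithelial markers, EMX2 and CDH2 had one in both lists, while KRT8 and KRT18 had one in the knockout. SPI1, of the 10 B cell and myeloid markers, had one in both ATAC lists. The wild-type RBPJ list, from HEK293T, had an interval at EMX2, CDH2, KRT8 and KRT18, but also at 3 of 14 T cell markers (CD247, CD7 and LCK) and at CD79A and MPO, so an interval at a marker does not identify the cells. The ATAC values are given by library label.

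Seen from the other lists, most broad intervals overlapped a domain. Of the 695 intervals of at least 3000 bp in the knockout list, 401 (57.7%) overlapped a domain, as did 165 of 252 (65.5%) in the titled RBPJ list and 75 of 104 (72.1%) in the titled RBPJK175R list. Any wild-type interval met 95.8%, 93.7% and 94.2% of them. The wild-type list held 379 of the knockout's broad intervals as 1 interval over at least 50% of the width, 171 of those in the titled RBPJ list and 76 of those in the titled RBPJK175R list. The domains that held a knockout interval of at least 3000 bp numbered 378 of 1003, or 37.7%. For the titled RBPJ list the number was 160 (15.95%) and for the titled RBPJK175R list 73 (7.28%). Shares over all intervals of each other list are not given here, and the part of width in these overlaps was not tested.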

How the data were processed

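Intervals were analysed for 4 RBPJ CUT&Tag libraries of HEK293T cells and 2 ATAC-seq libraries labelled Jurkat, 1 per group. Per the submitters' processing notes the tools included Trim Galore, Bowtie2, MACS2 and deepTools on hg38; versions, calling thresholds and filters are unstated. The file names of the titled lists name an IgG comparison; which control served each of the other RBPJ lists is not stated. The deposited columns used were positions, the fold over background at the summit (a ratio) and −log10 of p and of q; the deposited score column was not used. No deposited list held an interval with −log10 q under 1.30.

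From the deposited fold and −log10 p, the whole reads at each summit and the local background were recovered under the caller's Poisson model, within 0.1% of the −log10 p for at least 99.995% of intervals in every list. In the titled RBPJ list pileups had first been scaled by 0.812. Reads printed for that list are before scaling. Depth is read from the genome-wide background, since read totals are not given. Reads sharing a source are not independent molecules, so 95% exact (Clopper-Pearson) intervals cover counting error only.

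Overlaps, the states kept, narrowed, broken up and without a call, and shares covered were computed in Python 3.11.15 with numpy 2.4.6 and pandas 2.3.3, and tested on simulated data. Figures were drawn with matplotlib 3.10.9 and exact intervals computed with scipy 1.17.1. Genes came from RefSeq GRCh38.p14 (19974 protein-coding genes) and starts and promoters from its promoter table, which here held 15812 protein-coding genes and none on chromosome 8. The domains eligible to be named were the 10 widest, the 10 with the highest fold, the 5 widest kept, broken up and without a call in each other RBPJ list, the 5 widest called in none of the 3, the 5 widest without ATAC and those covering a member of 15 gene lists (up to 6 per list); some of them are printed, with a few named after their values were seen. The members and gene lists were chosen with earlier results of these data known. Intervals outside chromosomes 1 to 22 and X were left out. Alternatives varied the width limit, the overlap rule, the q threshold, the kept share, the joining of pieces, the gene window and the chromosomes. Interval lists do not check the loss of FBXO42.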

Additional observations from a re-analysis of the deposited data

Results flagged for a closer look

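The wild-type RBPJ list held 3 more intervals of at least 3000 bp on sequences outside chromosomes 1 to 22 and X, which entered no comparison. The mitochondrial genome was covered by an interval of 16539 bp with a fold of 2.83 and 73963 summit reads; the knockout list had 3 intervals there with 25564 reads at most, and the titled lists had none. An unlocalised contig of chromosome 17 held an interval of 3778 bp with 2945 reads, against 1796, 2478 and 1350 in the knockout, titled RBPJ and titled RBPJK175R lists. An unplaced contig held an interval of 4114 bp with 2138 reads, against 1471, 2140 and 898. Each other RBPJ list had 1 interval there: 3666, 3653 and 3662 bp on the first contig and 3995, 3827 and 3627 bp on the other, in the same order of lists.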

How the results depend on the processing

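No paired analysis was possible because each group is 1 library and the labels give no replicate numbers. Of 133 values recomputed under other settings, 64 moved by less than the limit set for them, 69 moved by more and 0 reversed. A move within the limit could be large for a count. The domains broken up in the knockout list went from 404 to 286 with pieces under 500 bp apart joined, and this was within it. The lists are named below in the order knockout, titled RBPJ, titled RBPJK175R, ATAC wild type and ATAC knockout. With a width of at least 2000 bp there were 2807 domains; 93.9%, 87.5%, 76.1% and 87.1% were overlapped in the first 4 lists, and the median share covered was 65.9% in the knockout and 31.1% and 16.8% in the ATAC lists. With at least 4000 bp there were 437; 99.1%, 95.7% and 89.5% were overlapped in the RBPJ lists and 68.9% in ATAC knockout, and the median share was 72.4% and 45.4% in the knockout and titled RBPJ lists and 16.4% and 8.08% in the ATAC lists. Counting an overlap from 50% of the domain gave 75.7%, 46.3%, 29.7%, 3.39% and 0.299%; from the summit base it gave 94.2%, 85.3%, 72.3%, 75% and 54.2%. Where the other list was held to a −log10 q of 5 or more, 94.2%, 86.3%, 74.0%, 81.9% and 52.8% were overlapped, with median shares of 66.4%, 44.6%, 29.2%, 20.2% and 5.96%. In the RBPJ lists 235, 191 and 181 were then broken up and 58, 137 and 261 without a call, and 212 were narrowed in the knockout. With at least 10 the overlap was 84.4%, 75.3%, 59.5%, 58.3% and 22.4%, and the median share 61.4%, 41.0%, 21.5%, 11.5% and 0%. Among domains above the median of summit reads the overlap was 100%, 98.8%, 96.8%, 98.2% and 87.3%. With kept set at 25%, 539, 522 and 356 were kept and 39, 98 and 182 narrowed in the RBPJ lists; at 75%, 288, 114 and 44 were kept and 290, 506 and 494 narrowed. With pieces under 500 bp apart joined, 549, 334 and 189 were kept and 286, 261 and 276 broken up. Wherever overlap or median share was recomputed, the order knockout, titled RBPJ, titled RBPJK175R was the same; the cause of the moves was not tested. The genome-wide background of the libraries was 92.1%, 71.4%, 38.1%, 23.5% and 10.4% of that of the wild-type RBPJ library, so an interval missing from a list may be one not detectable at its depth.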
